A study of Caenorhabditis elegans with 16 samples.

Results

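Worms exposed to tunicamycin from the embryo were compared with worms that had their 24 h in liquid at the fourth larval stage (L4) and received no drug. The comparison holds 8 of the 16 RNA-seq libraries of the series, namely the 4 of EMBRYO TM and the 4 of L4 CNT, and the members were taken from the stage and treatment given in the sample labels. All worms were wild-type N2 C. elegans of 1 strain, kept at 20 °C, and each library came from the whole worms of a single plate. Embryos of the EMBRYO TM group were released by bleaching and rocked for 24 h in S Medium with tunicamycin at 1.25 μg/ml. Worms of the L4 CNT group were released in the same way, grew on plates to L4 and spent their 24 h without the drug. Per the study, larvae treated as embryos grew to adulthood on plates, while the 24 h of the L4 treatment ran from L4 to the first day of adulthood, and the sequenced worms of both were Day 1 adults. The 4 libraries of EMBRYO CNT, which had their 24 h as embryos without the drug, are given beside the results as a description and entered no test. Since EMBRYO TM and L4 CNT differ both in the drug and in the stage of the 24 h in liquid, these 2 sources of a difference cannot be told apart here. In whole worms, fewer cells of a type and less RNA per cell cannot be told apart either.

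Tunicamycin blocks the first step of N-linked glycosylation, so that unfolded proteins build up in the endoplasmic reticulum and set off its unfolded protein response. The hermaphrodite goes through 4 moults, each with its own set of cuticle collagens under oscillating control, makes its sperm in the last larval stage and then turns to oocytes. Yolk, made in the intestine from vitellogenin genes, begins to be made in quantity at the step from larva to adult. Collagen, sperm and yolk transcripts are therefore among those that change on the path from larva to adult. Whether the 2 groups differed in developmental stage was not tested. The question here was which programmes of the embryo-treated worms reached, stayed short of or passed the level of the other untreated population.

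The values are FPKM, the number of fragments on a gene scaled for its length and for the size of the library. All differences and tests are on the log2(FPKM + 1) scale, on which the change of genes with low values is understated, and a positive difference means higher in EMBRYO TM. A gene was called higher or lower when limma gave a log2 difference beyond 1 and a Benjamini-Hochberg adjusted p under 0.05, and SE is the standard error of the difference. A gene was said to reach the L4 CNT level when the 95% interval of its difference lay wholly inside a 1.5-fold change either way. Of 13480 genes with a mean of at least 1 FPKM over the 8 libraries, 2352 (17.4%) were higher in EMBRYO TM, 978 (7.26%) were lower, and 3345 (24.8%) reached the L4 CNT level. Among those that reached it, 752 also differed at an adjusted p under 0.05 by limma, so reaching the level does not mean equal. The genes called higher had low levels, with a median of 4.11 FPKM over the 8 libraries against 34.4 FPKM for those called lower. A gene near 0 in 1 group passes the filter through the other group alone. Counts among genes tested therefore do not stand for all genes of a family. The median difference over all genes tested was -0.02. Where a count is 0, the count at an unadjusted p under 0.05 and that of voom, which is limma run on the recovered reads, are given with it.

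The libraries held 13716456 to 15744453 reads on genes in EMBRYO TM and 12361026 to 26922902 in L4 CNT. Of 46589 genes, 19403 to 19954 had at least 1 read in the EMBRYO TM libraries and 17539 to 18756 in those of L4 CNT. Defining genes of muscle, intestine, epidermis, neurons and germline were measured in both groups, as the label of whole worms requires, and the embryonic genes pes-10, med-1 and end-3 had means under 1 FPKM in both. A library of each group stood apart. In EMBRYO TM replicate 4, the shortest of 4 equal length classes of genes (up to 766 bases) lay at a median of 0.22 above the mean of its group on the log2 scale and the longest class (from 1901 bases) lay at -0.15. In EMBRYO TM replicate 3 the order was the opposite, with -0.15 and 0.09. In L4 CNT the medians of the length classes lay between -0.02 and 0.04 in every library, but replicate 2, the shallowest, was low in several epidermal and stress genes named below. The calls followed gene length too. The longest length class held 527 genes higher and 33 lower, and the shortest 693 higher and 469 lower. With a length trend removed from each library, a step chosen after the data were seen, the longest length class held 307 higher and 62 lower, and the total over all genes was 2102 higher and 965 lower. The part that gene length plays in each result was not tested beyond these counts.

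**Figure D1:**
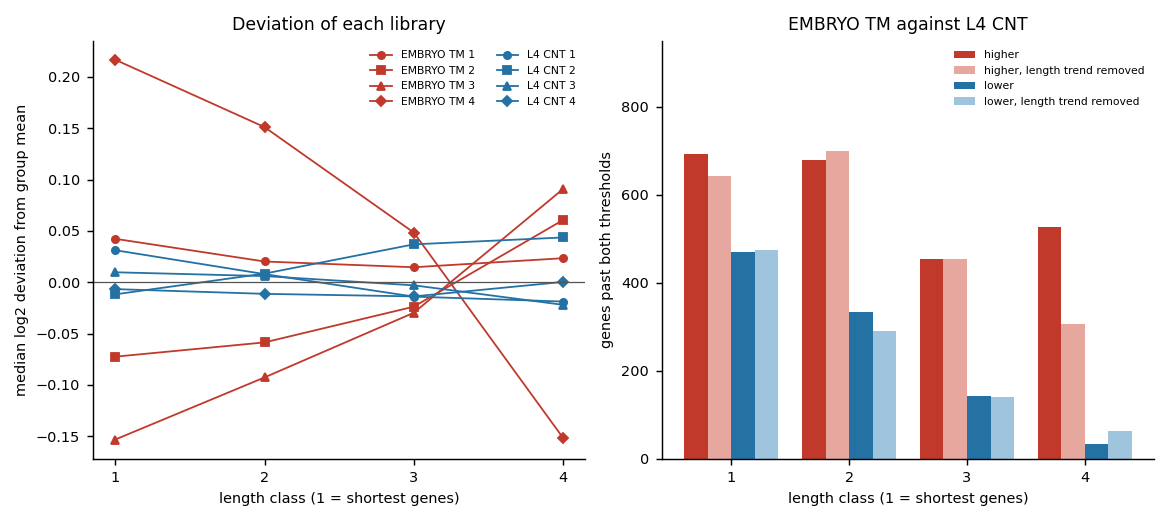
Left, the median deviation of each library from the mean of its group on the log2(FPKM + 1) scale (y axis) in 4 equal classes of gene length (x axis, 1 = shortest), for the 4 EMBRYO TM and 4 L4 CNT libraries. EMBRYO TM replicate 4 runs from 0.22 in the shortest length class to -0.15 in the longest, and no other library spans as much. Right, the number of genes higher or lower past both thresholds in each class, as tested and with the length trend removed. In the longest length class the 527 higher genes became 307.

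The cuticle genes passed the L4 CNT level as a block. Cuticle collagens are secreted by the epidermis and crosslinked into the exoskeleton, and most are switched on around a particular moult. Of 127 col genes tested, of 157 listed, 105 were higher in EMBRYO TM, 0 lower (2 at an unadjusted p under 0.05 and 1 by voom) and 4 reached the L4 CNT level (2 without L4 CNT replicate 1 or 3, and 10 without replicate 2), and their median difference was 2.30 against -0.02 over all genes. Their mean level was 5.75 on the log2 scale in EMBRYO TM (5.60 to 5.88 in its 4 libraries) and 3.40 in L4 CNT (2.99 to 3.55). EMBRYO CNT lay between, at 4.83.

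The largest increase of all genes was in col-36 (C27H5.5, chromosome II, 7167513 to 7168662 as the deposited table gives it). In the order of replicates 1 to 4, which is kept from here on, it was at 163, 149, 171 and 136 FPKM in EMBRYO TM. In L4 CNT it was at 0.178, 0.0714, 0.158 and 0.189 FPKM, a log2 difference of 7.08 (SE 0.09, adjusted p = 4.76e-10 by limma). The groups were far apart in every library, and EMBRYO CNT stood beside EMBRYO TM at 171 ± 14.0 FPKM (SD, n = 4). For col-43 the EMBRYO TM libraries held 190.0, 195, 247 and 148 FPKM and those of L4 CNT 0.577, 0.0770, 0.911 and 0.559 FPKM, and the difference was 7.01. The same near absence from L4 CNT was seen for col-40 (6.53), col-2 (6.47), col-102 (5.86), col-158 (5.75) and col-50 (5.69), whose L4 CNT means were 0.0591 to 0.811 FPKM. The most abundant col genes did not take part in this. Both col-119, at 1991 ± 343 and 1915 ± 558 FPKM (SD, n = 4), and col-140, at 1969 ± 355 and 1591 ± 341 FPKM, lay short of the threshold, with differences of 0.10 (adjusted p = 0.745 by limma) and 0.32 (adjusted p = 0.190 by limma). The adult collagen col-19 was at 1161 ± 54.4 FPKM in the EMBRYO TM libraries against 878 ± 300.4 FPKM in those of L4 CNT, a difference of 0.49 (adjusted p = 0.133 by limma).

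**Figure D2:**
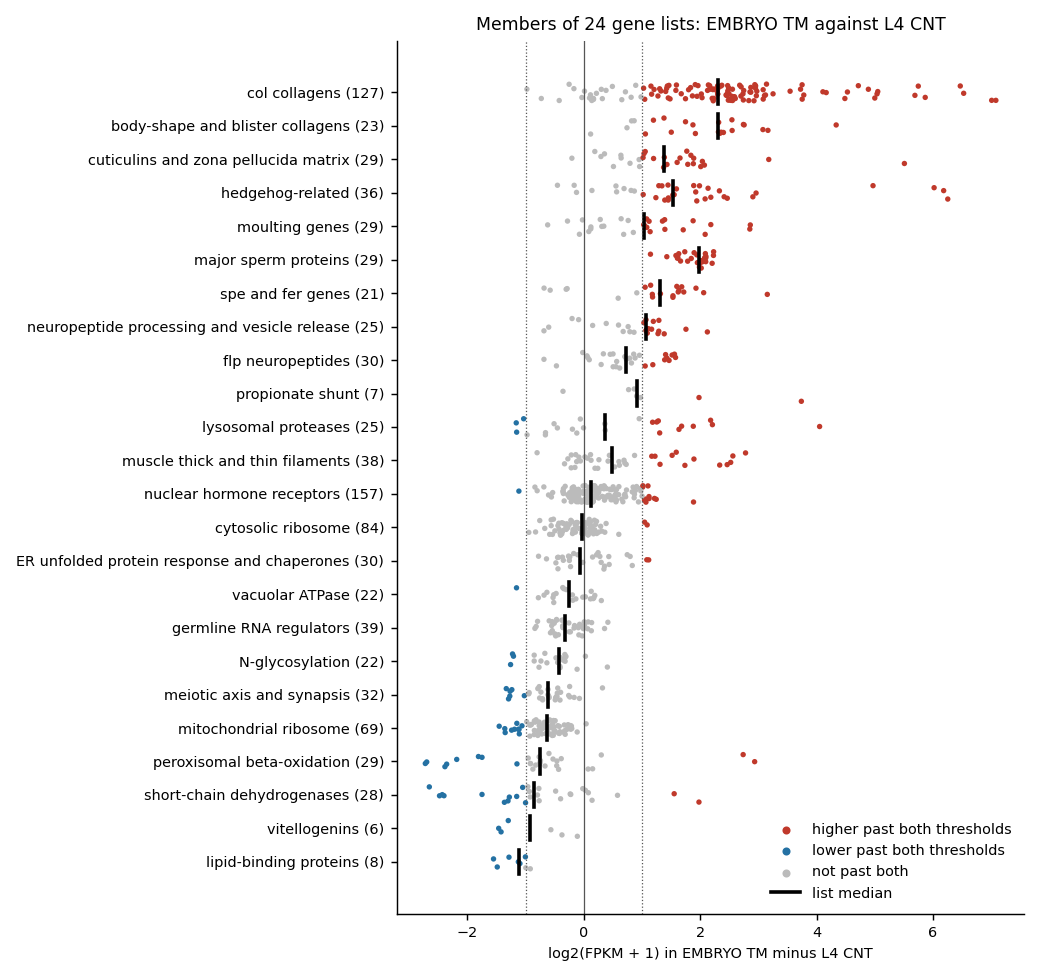
Each point is a gene of 1 of 24 lists (rows, with the number of genes tested), placed by its log2(FPKM + 1) level in EMBRYO TM minus that in L4 CNT (x axis). Black bars are list medians and dotted lines mark a difference of 1 either way. Collagens and sperm genes lie to the right, with medians of 2.30 for the col genes and 1.98 for the major sperm proteins. The lipid-binding proteins and vitellogenins lie to the left, with medians of -1.11 and -0.93.

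Of 23 collagens and partner enzymes that shape the body or whose loss gives blisters, 19 were higher and 0 lower (0 at an unadjusted p under 0.05 and 0 by voom), with a median of 2.31. dpy-13, whose mutants are short and fat, was at 88.9, 98.3, 127 and 58.8 FPKM in EMBRYO TM. It was at 11.8, 4.48, 11.2 and 11.4 FPKM in L4 CNT, where replicate 2 was the lowest, and the difference was 3.16 (SE 0.31, adjusted p = 2.68e-05 by limma). sqt-3, a collagen needed from the first larval cuticle on, was at 103, 112, 138 and 67.5 FPKM and 21.1, 13.5, 22.0 and 20.9 FPKM, a difference of 2.36. Neither gene overlapped between the groups, and both lay above EMBRYO CNT, which was at 28.3 ± 2.28 FPKM for dpy-13 and 56.9 ± 5.30 FPKM for sqt-3 (SD, n = 4). The largest difference of this list was in rol-8, at 4.33.

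The other parts of the cuticle programme moved in the same direction. Hedgehog-related proteins of C. elegans are secreted largely by epidermal cells and lie in the extracellular matrix. Of 36 tested, of 59 listed, 27 were higher and 0 lower (1 at an unadjusted p under 0.05 and 0 by voom), with a median of 1.54. Genes near 0 in L4 CNT, such as grl-25 and cut-1, passed the filter only through EMBRYO TM. grl-25, a ground-like member, had 83.0, 81.5, 113 and 51.0 FPKM in the libraries of EMBRYO TM against 0.0321, 0, 0.0476 and 0.127 FPKM in those of L4 CNT, a difference of 6.25 (SE 0.20, adjusted p = 5.11e-08 by limma). grl-20 (6.18) and grl-23 (6.02) followed it. Of 29 cuticulins and other matrix genes with a zona pellucida domain tested, of 49 listed, 19 were higher and 0 lower (0 at an unadjusted p under 0.05 and 0 by voom). cut-1 was higher by the most, at 52.5 ± 16.8 FPKM against 0.129 ± 0.0680 FPKM (SD, n = 4). Of 29 moulting genes tested, of 33 listed, 15 were higher and 0 lower (1 at an unadjusted p under 0.05 and 0 by voom). The leading ones were lin-42, the worm relative of period, and mlt-11, a large protease inhibitor needed to shed the old cuticle. mlt-11 was at 22.4, 25.1, 28.4 and 6.92 FPKM in EMBRYO TM, with replicate 4 the lowest, and at 1.99, 1.40, 1.60 and 1.80 FPKM in L4 CNT, a difference of 2.85. lin-42 was at 23.5, 27.7, 35.5 and 11.1 FPKM and 2.50, 1.39, 2.62 and 2.70 FPKM, a difference of 2.86. Even the lowest EMBRYO TM library of either gene lay above all 4 of L4 CNT.

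Heterochronic genes set which larval stage a cell behaves as. Of 16 tested, 7 were higher and 0 lower (2 at an unadjusted p under 0.05 and 0 by voom), with 10 higher when EMBRYO TM replicate 4 was left out. With the length trend removed 5 were higher, and with a pseudocount of 5 only 2 were. lin-14, which holds cells in the earliest larval programme, stood at 27.9, 27.9, 29.8 and 16.8 FPKM in EMBRYO TM, while L4 CNT held 6.66, 7.12, 7.66 and 7.08 FPKM, a difference of 1.68 (SE 0.16, adjusted p = 2.65e-05 by limma). The groups did not overlap, although EMBRYO TM replicate 4 lay well under the other libraries of its group. lin-29, which drives the switch of the epidermis from larva to adult, was also higher, at 4.24 ± 0.706 FPKM against 1.21 ± 0.0733 FPKM (SD, n = 4). lin-41 was at 105 ± 36.2 FPKM and 74.8 ± 3.37 FPKM, a difference of 0.41 (adjusted p = 0.160 by limma), and its groups overlapped.

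Most sperm genes passed the L4 CNT level, except for one small family, and few oocyte genes did. Major sperm proteins build the crawling machinery of the amoeboid sperm and are also the signal that starts oocyte maturation. All 29 msp genes tested, of 30 listed, were higher in EMBRYO TM, with a median of 1.98, and all of the 29 also when any 1 library but L4 CNT replicate 2 was left out, without which 28 were. msp genes are near-identical copies among which reads can be split or dropped, which leaves the value of any 1 copy uncertain. Their summed level was 2607, 2579, 2618 and 2360 FPKM in EMBRYO TM and 710.1, 587, 670.0 and 677 FPKM in L4 CNT. No library of either group came near the other. EMBRYO CNT held 779 ± 50.5 FPKM (SD, n = 4), so the summed level stood above both untreated groups. As an example, msp-77 gave 91.6, 118, 131 and 100.1 FPKM in the EMBRYO TM libraries and 22.7, 18.5, 27.5 and 22.1 FPKM in those of L4 CNT, a difference of 2.23.

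Of 21 spe and fer genes tested, of 30 listed, 15 were higher and 0 lower (4 at an unadjusted p under 0.05 and 0 by voom). They are known from mutants with defective sperm. Many are low transcripts, and with a pseudocount of 5 only 4 were higher. With a filter at 5 FPKM 9 were tested and 4 of them were higher. By limma's adjusted p alone, 4 were lower, the largest being spe-5 at -0.68. The largest difference was in spe-18, which is needed to assemble major sperm protein into fibrous bodies. It had 31.3, 37.4, 38.7 and 18.1 FPKM in the libraries of EMBRYO TM against 2.68, 1.81, 2.77 and 2.86 FPKM in those of L4 CNT, a difference of 3.15 (SE 0.23, adjusted p = 4.45e-06 by limma). Of 21 argonautes, 4 were higher, a share near the 17.4% of all genes. The leading pair was alg-3 and alg-4, which work with small RNAs in sperm formation. alg-3 was at 13.9, 16.4, 15.0 and 9.44 FPKM and 1.01, 1.26, 1.02 and 1.28 FPKM, a difference of 2.76, and alg-4 had a difference of 2.72. EMBRYO CNT lay between the 2 groups for alg-3, at 5.45 ± 0.903 FPKM (SD, n = 4). Among 46 genes of small sperm families, 27 were higher, led by ssq-4 (2.62) and sss-2 (2.50), and 14 were lower, led by nspc-1 (-1.73) and nspc-19 (-1.70). All 14 of the lower ones, and all 17 that were lower by adjusted p alone, were nspc genes, which are again close copies of each other.

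On the oocyte side, of 39 germ granule and germline RNA regulators, 0 higher (1 at an unadjusted p under 0.05 and 0 by voom), 0 lower (20 at an unadjusted p under 0.05 and 0 by voom) and 13 reached the L4 CNT level, with a median of -0.33. Without EMBRYO TM replicate 4, 24 of the germline RNA regulators reached it and their median was -0.16. By limma's adjusted p alone, 19 were lower. rme-2, the receptor by which oocytes take up yolk, stood at 245, 259.9, 298 and 173 FPKM in EMBRYO TM, while L4 CNT held 247, 229.6, 236 and 259.9 FPKM. Its groups overlapped, and the difference of -0.02 had an interval of -0.37 to 0.33, inside the 1.5-fold range. Of 25 eggshell and oocyte-to-embryo genes, 1 was higher, 2 were lower and 7 reached the L4 CNT level, the last 2 shares near the 7.26% and 24.8% of all genes. The higher one was cav-1, a caveolin, and the lower ones were cpg-3, an eggshell chondroitin proteoglycan, at -1.03, and dlc-1, a dynein light chain, at -1.10. By limma's adjusted p alone, 2 of the eggshell and oocyte-to-embryo genes were higher and 14 lower, and their median was -0.44. Genes of the meiotic chromosome axis and of synapsis stayed short, with 28 of 32 lower by limma's adjusted p alone and a median of -0.61. Past both thresholds 6 were lower and 0 higher (0 at an unadjusted p under 0.05 and 0 by voom), and 6 reached the L4 CNT level. The leading ones were lab-1 (-1.33) and syp-3 (-1.29).

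**Figure D3:**
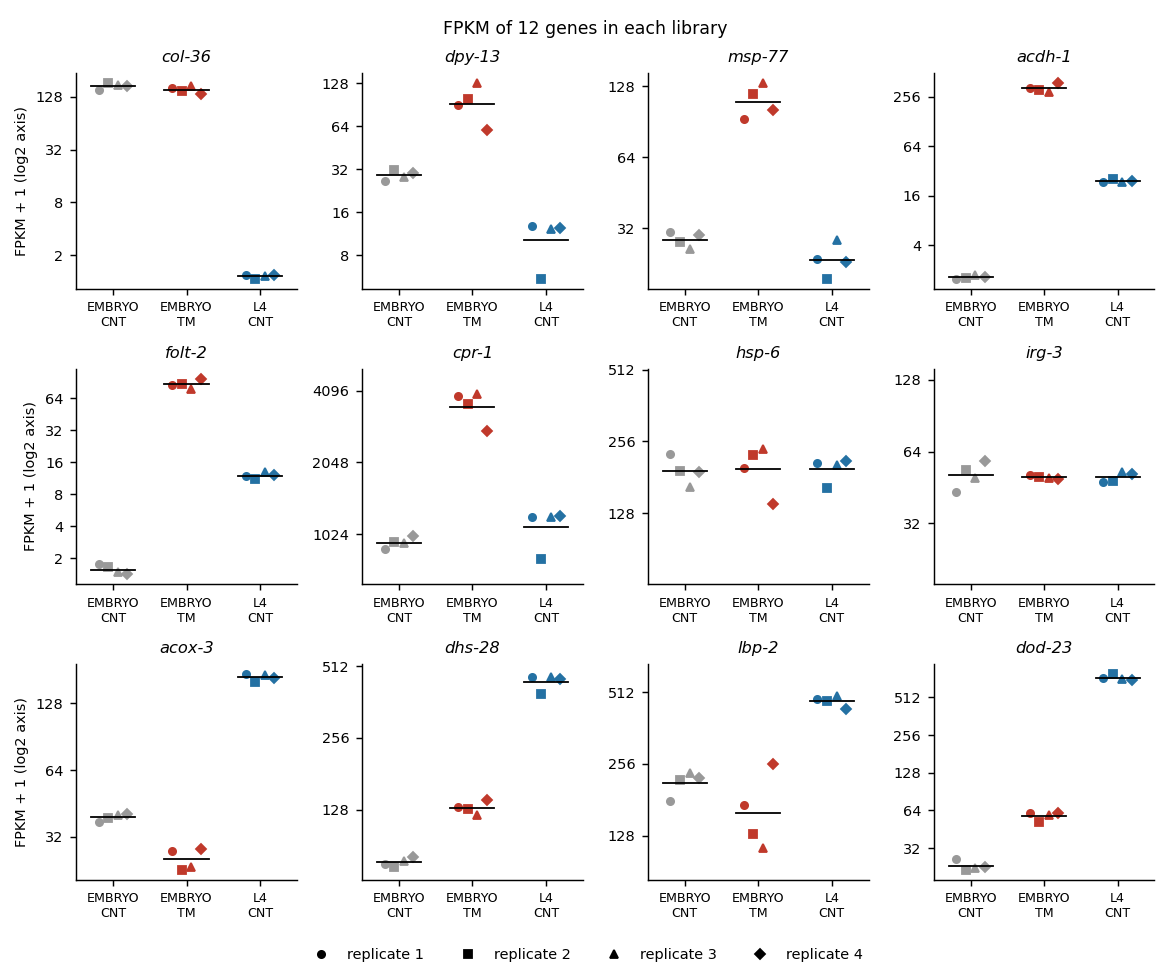
FPKM + 1 of 12 genes (y axis, log2 scale, a range of its own in each panel) in every library of EMBRYO CNT, EMBRYO TM and L4 CNT (x axis). Symbols mark the replicate number and bars the mean on the log scale. The EMBRYO TM libraries lie above all L4 CNT libraries for col-36, dpy-13, msp-77, acdh-1, folt-2 and cpr-1, and under them for acox-3, dhs-28, lbp-2 and dod-23. For hsp-6 and irg-3 the groups overlap.

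The propionate shunt passed both untreated groups in the mean level of its genes, with the largest difference from L4 CNT at its first step. The mean level on the log2 scale was 6.925 in EMBRYO TM, 5.66 in L4 CNT and 4.83 in EMBRYO CNT. This pathway breaks down propionate through a beta-oxidation-like route and is switched on in worms when the vitamin B12 route cannot cope. acdh-1, the acyl-CoA dehydrogenase of the first step (C55B7.4, chromosome I, 6497438 to 6499316), was at 326, 303, 293 and 374 FPKM in EMBRYO TM. It was at 22.4, 24.8, 22.6 and 23.4 FPKM in L4 CNT, and the difference was 3.74 (SE 0.09, adjusted p = 1.01e-08 by limma). Both sets of 4 were tight and far apart, and EMBRYO CNT had almost none, at 0.634 ± 0.0784 FPKM (SD, n = 4). hphd-1, which turns 3-hydroxypropionate into malonic semialdehyde, was at 155, 163, 165 and 125 FPKM and 37.6, 38.7, 36.8 and 37.5 FPKM, a difference of 1.98. It too stood above EMBRYO CNT, whose libraries held 18.7 to 20.2 FPKM. The enzymes of the steps between and after them, ech-6 (0.86, adjusted p = 3.21e-04 by limma), hach-1 (0.77, adjusted p = 1.68e-05 by limma) and alh-8 (0.97, adjusted p = 0.00403 by limma), lay under the fold threshold. alh-8 passed it, at 1.22, when EMBRYO TM replicate 4 was left out. Of the 2 nuclear receptors that switch the shunt on, nhr-68 was at 24.97 ± 7.31 and 12.6 ± 1.94 FPKM (difference 0.91, adjusted p = 0.00169 by limma), and nhr-10 at 15.1 ± 1.82 and 19.8 ± 3.52 FPKM (SD, n = 4, difference -0.36). In all, 2 of 7 shunt genes were higher and 0 lower (1 at an unadjusted p under 0.05 and 0 by voom).

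The vitamin B12 route itself, in which propionate is carried through methylmalonyl-CoA, had 0 higher (0 at an unadjusted p under 0.05 and 0 by voom) and 0 lower (3 at an unadjusted p under 0.05 and 1 by voom) by limma among the 7 tested, and 4 that reached the L4 CNT level. These were pcca-1, mmcm-1, mmaa-1 and mtrr-1, with differences of 0.13, -0.12, -0.32 and 0.10. Differences of mce-1, the epimerase, and mmab-1, which makes the cofactor, were -0.90 and -0.99, close to the threshold. Without EMBRYO TM replicate 4 both passed it, at -1.02 and -1.13. By limma's adjusted p alone, 3 of the genes were lower.

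Among 21 genes of folate uptake and the methionine cycle, 7 were higher and 1 was lower. folt-2, a folate transporter of the reduced folate carrier family (F37B4.7, chromosome V, 2872465 to 2875600), gave 84.2, 85.4, 76.9 and 96.6 FPKM in the EMBRYO TM libraries and 10.997, 10.04, 11.9 and 11.1 FPKM in those of L4 CNT, a difference of 2.85 (SE 0.09, adjusted p = 4.58e-08 by limma). It was at 0.577 ± 0.159 FPKM in EMBRYO CNT (SD, n = 4), so that EMBRYO TM again stood above both untreated groups. Others that were higher included sams-5, an S-adenosylmethionine synthase (2.43), nhr-114, a receptor tied to the B12 and methionine response of the germline (1.88), and pmt-1, a methyltransferase of phosphatidylcholine synthesis (1.51). The lower one was dhfr-1, dihydrofolate reductase, at 50.1 ± 14.1 FPKM against 125 ± 4.64 FPKM (SD, n = 4).

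Lysosomal proteases were split, with more higher than lower. Of 25 tested, 10 were higher, 3 lower and 3 reached the L4 CNT level. By limma's adjusted p alone 12 were higher and 8 lower, and their median was 0.36. cpr-1, a cathepsin B of the intestine, had 3873, 3579.9, 3949.7 and 2764 FPKM in the libraries of EMBRYO TM against 1203, 808, 1211 and 1221 FPKM in those of L4 CNT, a difference of 1.68 (SE 0.18, adjusted p = 4.35e-05 by limma). asp-1, an intestinal aspartyl protease and among the most abundant transcripts of the worm, was at 11534, 12425, 14309 and 6008 FPKM and 4697, 3601, 4642 and 4881 FPKM, a difference of 1.252. In both genes EMBRYO TM replicate 4 was the lowest of its group, and for neither did the groups overlap. cpr-2 had the largest difference (4.05), with EMBRYO CNT the highest of the 3 groups at 70.1 FPKM, and cpr-8 (-1.16) and ctsa-3.1 (-1.16) led the lower ones. hlh-30, the worm TFEB that drives lysosome and autophagy genes, stood at 81.4, 94.8, 107 and 47.0 FPKM in EMBRYO TM, while L4 CNT held 25.2, 17.8, 27.8 and 27.1 FPKM, a difference of 1.67. It was higher still in EMBRYO CNT, at 113 ± 6.63 FPKM (SD, n = 4). The autophagy and mitophagy genes had 3 higher, 1 lower (4 lower without EMBRYO TM replicate 4) and 12 at the L4 CNT level of 33 tested. Their median was -0.23, and by limma's adjusted p alone 5 were higher and 17 lower. Of 22 subunits of the vacuolar ATPase, the proton pump of the lysosome, 13 reached the L4 CNT level and 1, vha-18, was lower (-1.16). With limma's adjusted p alone 11 of the subunits were lower and 1 higher, and their median was -0.25. Their mean level was 6.96 to 7.06 on the log2 scale in the EMBRYO TM libraries and 7.25 to 7.29 in those of L4 CNT.

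Genes of the gut and skin defence against microbes went both ways. Of 88 C-type lectin genes tested, of 254 listed, 32 were higher and 13 lower. They were led by clec-76 (4.78) and clec-169 on one side and clec-222 (-2.77) and clec-54 (-2.41) on the other. clec-169 gave 38.4, 27.5, 27.8 and 40.1 FPKM in the EMBRYO TM libraries and 0.591, 0.282, 0.417 and 0.372 FPKM in those of L4 CNT, a difference of 4.59 (SE 0.15, adjusted p = 4.58e-08 by limma). With a mean of 0.679 FPKM in EMBRYO CNT it was near absent from both untreated groups. Of 36 lysozymes and saposin-like proteins, 10 were higher, among them ilys-3 (3.56) and spp-21 (3.44), and 4 lower, among them lys-10 (-2.50) and spp-17. spp-17 had 239.5, 198, 227 and 268 FPKM in the libraries of EMBRYO TM against 1093, 1107, 968 and 1019.7 FPKM in those of L4 CNT, a difference of -2.17, with EMBRYO CNT lower again at 119.5 ± 17.7 FPKM (SD, n = 4). Of 7 irg genes, named for their response to infection, irg-8, irg-5 (1.67), irg-7 (1.41) and irg-4 (1.36) were higher and irg-2 (-1.11) was lower. irg-8 was at 161, 146, 134 and 173 FPKM and 42.7, 49.1, 44.6 and 42.8 FPKM, a difference of 1.75. irg-3 was at 50.3, 49.2, 48.6 and 48.2 FPKM and 46.8, 47.0, 51.6 and 50.5 FPKM, and with a difference of 0.00 and an interval of -0.15 to 0.16 it reached the L4 CNT level. Of 17 epidermal antimicrobial peptides, 6 were higher and 3 lower. Here L4 CNT replicate 2 stood apart from the rest of its group. nlp-24 stood at 80.7, 72.8, 60.8 and 95.7 FPKM in EMBRYO TM, while L4 CNT held 34.0, 7.77, 31.3 and 38.2 FPKM (difference 1.63), and nlp-29 at 18.2, 21.5, 18.1 and 27.8 FPKM and 75.4, 29.5, 81.6 and 73.7 FPKM (difference -1.48). The groups stayed apart in both genes, by little for nlp-29.

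In the lists of neuron and muscle genes, the mean level of EMBRYO TM lay between those of the untreated groups, though not for every gene. Neuropeptides are cut from precursors by the convertase egl-3 and trimmed by the carboxypeptidase egl-21. Of 25 processing and vesicle release genes, 14 were higher than in L4 CNT and 0 lower (3 at an unadjusted p under 0.05 and 0 by voom), but 7 were higher once the length trend was removed. The mean level was 4.63 on the log2 scale in EMBRYO CNT, 4.03 in EMBRYO TM and 3.21 in L4 CNT. egl-3 gave 80.1, 75.6, 76.5 and 52.7 FPKM in the EMBRYO TM libraries and 20.3, 19.98, 20.5 and 19.7 FPKM in those of L4 CNT, a difference of 1.75 (SE 0.13, adjusted p = 4.84e-06 by limma), while EMBRYO CNT was at 200.8 ± 13.3 FPKM (SD, n = 4). egl-21 was at 82.0 ± 11.6, 30.7 ± 1.22 and 189 ± 8.71 FPKM in the same order, with a difference of 1.38 between the first pair. Other neuron markers differed less. rab-3 had means of 9.11, 5.65 and 10.8 FPKM (difference 0.59), under the fold threshold. unc-119 was lowest in EMBRYO TM, with means of 9.10, 11.1 and 11.5 FPKM (difference -0.25, adjusted p = 0.0531 by limma). Among the peptide genes, 9 of 30 flp genes were higher and 0 lower (1 at an unadjusted p under 0.05 and 0 by voom), and 19 of 54 nlp genes were higher and 2 lower. The leading flp genes were flp-16 (1.57) and flp-5 (1.56), and nlp-12, a cholecystokinin-like peptide, had a difference of 1.68.

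Of 38 muscle filament genes, 12 were higher, 0 lower (2 at an unadjusted p under 0.05 and 0 by voom) and 11 reached the L4 CNT level, and with the length trend removed 8 were higher and 1 lower. unc-22, the giant twitchin kinase, had a difference of 2.78, and unc-52, perlecan of the basement membrane, had 48.8, 61.5, 71.7 and 15.9 FPKM in the libraries of EMBRYO TM against 7.54, 5.10, 6.63 and 6.94 FPKM in those of L4 CNT, a difference of 2.56 (SE 0.40, adjusted p = 3.74e-04 by limma). EMBRYO TM replicate 4 was the lowest of its group, and still above every L4 CNT library. Body wall myosins also differed, unc-54 from 111 ± 12.1 FPKM in L4 CNT to 461 ± 206 in EMBRYO TM and myo-3 from 7.85 ± 0.260 to 49.8 ± 15.1 FPKM (SD, n = 4, differences 1.89 and 2.46). Not every filament gene was higher. pat-10, troponin C, stood at 842, 666, 617 and 993 FPKM in EMBRYO TM, while L4 CNT held 1310.1, 1375, 1323 and 1343 FPKM, a difference of -0.80 (adjusted p = 0.00118 by limma).

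Genes linked to DAF-16, the transcription factor of the insulin pathway, and to ageing went both ways. Of 21 tested, 9 were higher, led by dod-3 (3.41) and dod-6 (3.39), and 2 were lower, dod-23 (-3.66) and dod-18 (-1.27). mtl-1, a metallothionein of the intestine, gave 316, 281, 253 and 349.6 FPKM in the EMBRYO TM libraries and 27.9, 6.72, 24.8 and 26.9 FPKM in those of L4 CNT, where replicate 2 was the lowest, and the difference was 3.90 (SE 0.39, adjusted p = 2.81e-05 by limma). hsp-12.6, a small heat shock gene under DAF-16, was at 59.0, 55.7, 35.1 and 92.7 FPKM and 4.43, 7.14, 5.44 and 4.28 FPKM, a difference of 3.23. Both lay under EMBRYO CNT, which was at 1704 ± 259.8 FPKM for mtl-1 and 700.2 ± 75.3 FPKM for hsp-12.6 (SD, n = 4). mtl-2, in contrast, was at 137 ± 4.19 FPKM in EMBRYO TM, 138 ± 18.2 FPKM in EMBRYO CNT and 19.3 ± 3.80 FPKM in L4 CNT. Of 12 heat shock genes tested, hsp-12.6 and hsp-12.3 (1.42) were higher, hsp-17 was lower (-1.12), and hsp-1, hsp-43 and hsf-1 reached the L4 CNT level. These shares are near the 17.4%, 7.26% and 24.8% of all genes, and nothing particular to the family is read from them. Of 31 antioxidant and metal genes, 9 were higher and 2 lower, the lower ones being sod-2, mitochondrial superoxide dismutase (-1.05), and gpx-1 (-1.15). By limma's adjusted p alone, 9 of these were higher and 12 lower.

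Of the 6 yolk genes, 3 stayed short of the L4 CNT level and none was shown to reach it, with a median of -0.93 for the vitellogenins. Without EMBRYO TM replicate 4, 2 were lower, 2 reached the level and the median was -0.60, and with the length trend removed 4 were lower and the median was -1.46. vit-3, vit-4 and vit-5, near-identical neighbours among which reads can be split, code for the same kind of large yolk protein, and vit-6 for the precursor of the smaller ones. vit-3 (F59D8.1, chromosome X, 3567397 to 3572549) had 438, 512, 598 and 210.5 FPKM in the libraries of EMBRYO TM against 1083, 1142, 991 and 1199 FPKM in those of L4 CNT, a difference of -1.42 (SE 0.28, adjusted p = 0.00160 by limma). vit-5 was at 2336, 2539, 3025 and 1077 FPKM and 5148, 5293, 4754 and 5479.7 FPKM, a difference of -1.30 that came to -0.98 without EMBRYO TM replicate 4, and vit-4 differed by -1.46. No EMBRYO TM library of these 3 genes reached the lowest of L4 CNT. vit-2, in contrast, stood at 7119, 8444, 9724 and 2769 FPKM in EMBRYO TM, while L4 CNT held 7235, 6056, 6640.4 and 7598 FPKM, a difference of -0.11 (interval -0.92 to 0.69). vit-6 was at 5510.1, 6547, 7671 and 1978 FPKM and 6733, 5353, 6114 and 7069 FPKM, a difference of -0.38 (interval -1.24 to 0.48). In EMBRYO TM, replicates 2 and 3 lay above most of the L4 CNT libraries for vit-2 and replicate 4 lay under all of them, and the intervals are too wide to say that either gene reached the L4 CNT level. vit-1 differed by -0.57 (adjusted p = 0.129 by limma) and by -1.12 with the length trend removed.

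The genes vit-3, vit-4 and vit-5, chosen here because they were the 3 called lower, together made up 19.6, 18.5, 18.9 and 23.2% of the vitellogenin FPKM in EMBRYO TM and 33.5, 38.3, 33.4 and 34.0% in L4 CNT. EMBRYO CNT was at 12.6 ± 0.856% (SD, n = 4). The EMBRYO TM shares all lay under those of L4 CNT, replicate 4 included, which restates the calls of these genes and was not tested. The vitellogenins as a whole made up 2.26, 2.68, 2.97 and 0.991% of all FPKM in EMBRYO TM and 2.77, 2.73, 2.56 and 2.97% in L4 CNT. These ranges overlapped, and EMBRYO CNT was at 0.652 ± 0.121% (SD, n = 4). Of the 9 yolk receptor and regulator genes, 4 were higher, namely lrp-2 (1.84, and 0.44 with the length trend removed), lin-29 (1.23), unc-62 and elt-2 (1.05). unc-62, a homeodomain factor that holds yolk genes on in adults, gave 22.9, 24.7, 28.8 and 16.1 FPKM in the EMBRYO TM libraries and 9.73, 9.70, 9.52 and 10.3 FPKM in those of L4 CNT, a difference of 1.13. pqm-1 (0.36) and rme-8 (0.04) reached the L4 CNT level, as did rme-2 above.

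**Figure D4:**
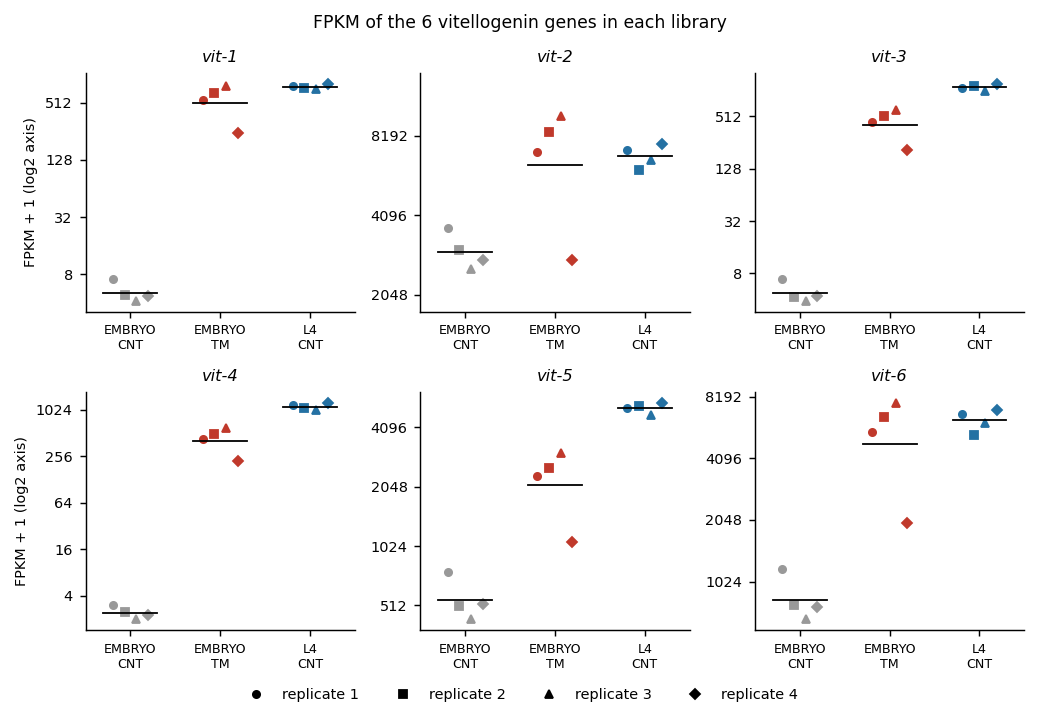
FPKM + 1 of the 6 vitellogenin genes (y axis, log2 scale, a range of its own in each panel) in every library of EMBRYO CNT, EMBRYO TM and L4 CNT (x axis), with symbols for the replicate number and bars for the mean on the log scale. For vit-3, vit-4 and vit-5 all EMBRYO TM libraries lie under those of L4 CNT. For vit-1, vit-2 and vit-6 the groups overlap, and EMBRYO TM replicate 4 is the lowest of its group in all 6 panels.

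Peroxisomal fat breakdown stayed short of L4 CNT. In worms this pathway trims very long fatty acid side chains and makes the ascaroside pheromones. Of 29 peroxisomal genes, 8 were lower, 2 higher and 4 reached the L4 CNT level, with a median of -0.76. Without EMBRYO TM replicate 2, or without L4 CNT replicate 1, only 2 reached that level. acox-3, an acyl-CoA oxidase (F58F9.7, chromosome IV, 6245341 to 6248486), had 26.6, 21.7, 22.5 and 27.1 FPKM in the libraries of EMBRYO TM against 172, 159, 171 and 165 FPKM in those of L4 CNT, a difference of -2.72 (SE 0.09, adjusted p = 6.30e-08 by limma). maoc-1, the hydratase of the second step, was at 69.1, 56.6, 49.2 and 102 FPKM and 354, 356, 356 and 345 FPKM, a difference of -2.39. dhs-28, the dehydrogenase of the third step, was at 131, 128, 120.2 and 140.0 FPKM and 458, 391.7, 459 and 449.7 FPKM, a difference of -1.75. These 3 genes were thus lower in every EMBRYO TM library than in any of L4 CNT, which does not cover the other genes of their steps. EMBRYO CNT was at 38.3 ± 1.32, 84.1 ± 8.50 and 76.2 ± 3.10 FPKM for these genes (SD, n = 4), above EMBRYO TM for the first and second and under it for the third. Other peroxisomal genes went the same way, among them prx-11, a peroxin of peroxisome division (-2.70), lonp-2, the peroxisomal Lon protease (-2.51), acs-7, an acyl-CoA synthetase of ascaroside making (-3.13), and gstk-1, a kappa class glutathione transferase (-2.62).

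The exceptions were ech-9, an enoyl-CoA hydratase, and pmp-5, a peroxisomal ABC transporter (2.74), both higher. ech-9 stood at 53.0, 47.7, 42.7 and 72.2 FPKM in EMBRYO TM, while L4 CNT held 5.94, 7.73, 4.83 and 5.99 FPKM, a difference of 2.93, and at 1.05 ± 0.197 FPKM in EMBRYO CNT (SD, n = 4). Of 23 genes of mitochondrial fat oxidation, 4 were higher and 2 lower, shares near the 17.4% and 7.26% of all genes. Their median was -0.52, and by limma's adjusted p alone 4 were higher and 15 lower. acdh-2, a neighbour of acdh-1 in sequence, differed by 3.87, cpt-2, a carnitine palmitoyltransferase, by -1.05, and the thiolase kat-1 reached the L4 CNT level at -0.01. Among 26 genes of fatty acid synthesis, 10 reached the L4 CNT level, 5 were higher and 2 lower, the last 2 shares near the 17.4% and 7.26% of all genes. The lower ones were the desaturases fat-1 (202 ± 9.13 against 471 ± 12.4 FPKM) and fat-5 (14.5 ± 1.98 against 33.6 ± 4.02 FPKM, SD, n = 4). Of the 26, 10 were higher and 7 lower by limma's adjusted p alone, and their median was -0.01. Among lipases, lipl-3 and lipl-2 were higher, by 3.11 and 2.34.

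All 8 lipid-binding protein genes tested lay under L4 CNT, and 6 of them passed both thresholds, against 7.26% of all genes lower. These small proteins carry fatty acids within and between cells. lbp-2 gave 171, 129.7, 113 and 254 FPKM in the EMBRYO TM libraries and 480.0, 471, 490.3 and 433 FPKM in those of L4 CNT, a difference of -1.55 (SE 0.22, adjusted p = 2.17e-04 by limma). lbp-1, lbp-3, lbp-4, lbp-5 and lbp-9 differed by -1.13, -1.29, -1.49, -1.10 and -1.005, and lbp-6 and lbp-7 lay just inside the threshold at -0.92 and -0.998. The genes are short, and EMBRYO TM replicate 4, high in short genes, had the highest value of its group for lbp-2. With the length trend removed 5 were lower, and without L4 CNT replicate 2 all 8 were.

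Enzymes of small-molecule metabolism differed by family. Of 28 short-chain dehydrogenases, 11 were lower and 2 higher. dhs-20 had 21.8, 17.5, 16.04 and 27.4 FPKM in the libraries of EMBRYO TM against 131, 135, 133 and 132 FPKM in those of L4 CNT, a difference of -2.66 (SE 0.15, adjusted p = 1.09e-06 by limma), and dhs-19 and dhs-18 differed by -2.48 and -2.43. Of 41 cytochrome P450 genes, 9 were lower and 1 higher. cyp-25A1 was at 8.47, 7.74, 7.13 and 13.1 FPKM and 83.6, 97.0, 82.7 and 78.5 FPKM, a difference of -3.13, and its close relatives cyp-25A3 and cyp-25A2 differed by -3.15 and -2.03. EMBRYO CNT held 12.0002 ± 1.36 FPKM of cyp-25A1 (SD, n = 4), near the level of EMBRYO TM. fmo-5, a flavin monooxygenase, was at 8.70 ± 1.05 FPKM against 75.6 ± 7.12 FPKM (SD, n = 4). Of 32 glutathione transferases and 45 UDP-glucuronosyltransferases, 14 and 15 reached the L4 CNT level, and in each family 3 were higher and 3 lower. Without L4 CNT replicate 3, 9 of the glutathione transferases reached that level.

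The largest decreases of all included single genes outside these families. ins-19, an insulin-like peptide (T10D4.13, chromosome II, 3126032 to 3126441), had no read in any EMBRYO TM library and was at 18.9, 15.9, 11.7 and 18.5 FPKM in L4 CNT. With a floor of 3 reads over the group, its mean was at least 118-fold lower in EMBRYO TM, and EMBRYO CNT was at 0.537 ± 0.424 FPKM (SD, n = 4). Of the other insulin-like peptides tested, 13 with ins-19, ins-7 was lower (-1.27) and ins-37 (2.19), daf-28 (2.02) and ins-18 (1.07) were higher. dod-23, a gene known to lie downstream of DAF-16, stood at 59.9, 50.5, 58.3 and 60.4 FPKM in EMBRYO TM, while L4 CNT held 733, 786, 724 and 699.5 FPKM, a difference of -3.66 (SE 0.09, adjusted p = 9.85e-09 by limma). hmit-1.1, a myo-inositol transporter of the osmotic response, was at 3.52, 4.05, 4.87 and 5.24 FPKM and 43.0, 29.6, 42.5 and 44.6 FPKM, a difference of -2.91. Both genes were lowest in EMBRYO CNT, at 22.1 ± 1.98 and 1.62 ± 0.290 FPKM (SD, n = 4). gpdh-1, the glycerol-making enzyme of the osmotic response, was lower as well (-1.06). The remaining genes of the 12 largest decreases were F48C1.9 (-3.79), spex-3 (-2.996), C02F12.5 (-2.99), K05B2.4 (-2.90) and B0272.4 (-2.89).

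Of 30 genes of the endoplasmic reticulum stress response and its chaperones, 16 reached the L4 CNT level, against 24.8% of all genes. Past both thresholds, 2 were higher and 0 lower (12 at an unadjusted p under 0.05 and 0 by voom). With limma's adjusted p alone, 12 were higher and 12 lower, and the median of the list was -0.06. The 2 past both thresholds were atf-6, a stress sensor of the membrane (1.11), and pdi-2, a disulfide isomerase that is also a subunit of the collagen prolyl hydroxylase. pdi-2 gave 465, 530.0, 578 and 292 FPKM in the EMBRYO TM libraries and 223, 178, 222 and 234.6 FPKM in those of L4 CNT, a difference of 1.08 (SE 0.20, adjusted p = 0.00114 by limma). hsp-4, the BiP chaperone, and xbp-1, its transcription factor, were singled out for their place in the response and reached the L4 CNT level at 0.15 and -0.24. Of 22 genes of N-glycosylation, the process that tunicamycin blocks, 0 higher (1 at an unadjusted p under 0.05 and 0 by voom), 5 reached the L4 CNT level, a share near that of all genes, and 3 were lower, or 17 by adjusted p alone. Leaving out EMBRYO TM replicate 1 or 2, or L4 CNT replicate 1 or 3, left 3 at that level. The lower ones were algn-13 (-1.26), algn-2 (-1.23) and dad-1, a small subunit of the oligosaccharyltransferase. dad-1 had 161, 137, 136 and 181 FPKM in the libraries of EMBRYO TM against 341, 405, 344 and 334 FPKM in those of L4 CNT, a difference of -1.21.

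In mitochondria, hsp-6, the chaperone that reports the unfolded protein response of this organelle, stood at 198, 224, 236 and 139 FPKM in EMBRYO TM, while L4 CNT held 206, 163, 202 and 210.1 FPKM. Its difference of 0.01 had an interval of -0.37 to 0.39, within the 1.5-fold range. Of 17 genes listed for this response 8 reached the L4 CNT level and 2 were lower, ubl-5 (-1.35) and lonp-2, the latter a peroxisomal protease. The median of the 17 was -0.31, and 10 of them were lower by limma's adjusted p alone. Of 52 nuclear genes of oxidative phosphorylation 17 reached the L4 CNT level, atp-2 among them (-0.04), and 5 were lower, a share near the 7.26% of all genes. Their median was -0.34, and by limma's adjusted p alone 29 were lower and 1 higher. Mitochondrial ribosomal proteins lay under L4 CNT, with 10 of 69 lower, 0 higher (0 at an unadjusted p under 0.05 and 0 by voom), 10 at the L4 CNT level and a median of -0.64, led by mrpl-51 (-1.46) and mrpl-36 (-1.36). The count of lower ones rested on single libraries, with 4 without EMBRYO TM replicate 3 and 15 without replicate 4, and 62 were lower by adjusted p alone. Their mean level was 5.06 in EMBRYO CNT, 5.22 in EMBRYO TM and 5.89 in L4 CNT on the log2 scale, and EMBRYO TM replicate 4, high in short genes, had the highest of its group (5.49). Cytosolic ribosomal proteins did not share this, since 39 of 84 reached the L4 CNT level, 0 lower (22 at an unadjusted p under 0.05 and 1 by voom) and the median was -0.03. The higher ones were rpl-25.1 (1.09) and rpl-42 (1.04), of which the latter is a low transcript here. Neither remained past the fold threshold without L4 CNT replicate 2. Of 157 nuclear hormone receptors, 81 reached the L4 CNT level, nhr-49 among them (0.02), 11 were higher and 1 was lower. Many of these are low transcripts, and 52 of the nuclear hormone receptors reached that level with a pseudocount of 0.1, 130 with a pseudocount of 5, 53 with TPM rescaling and 56 by voom.

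**Figure D5:**
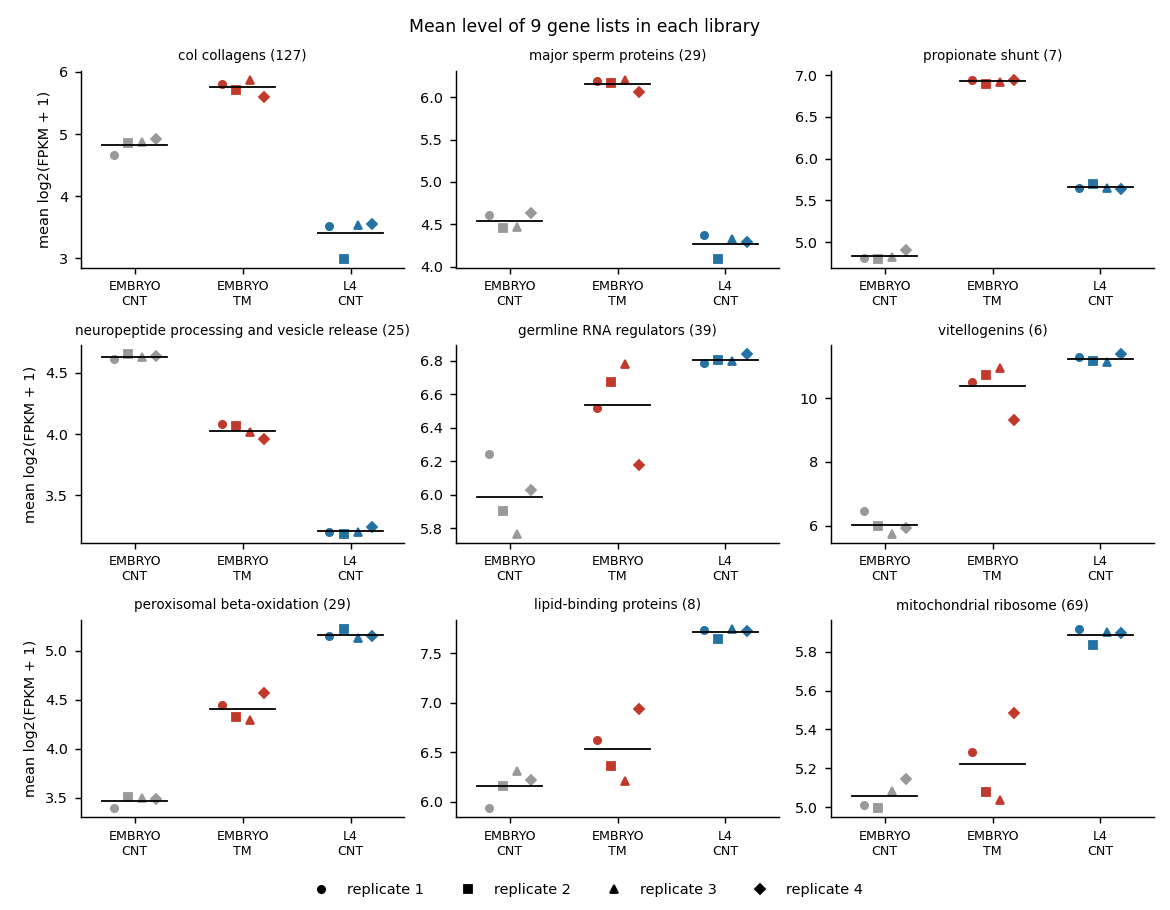
Mean log2(FPKM + 1) over the genes tested of 9 lists (y axis, a range of its own in each panel, the number of genes in brackets) in every library of EMBRYO CNT, EMBRYO TM and L4 CNT (x axis), with symbols for the replicate number and bars for group means. EMBRYO TM lies above both untreated groups for the col collagens, the major sperm proteins and the propionate shunt. It lies between them in the other 6 lists, and for germline RNA regulators and vitellogenins EMBRYO TM replicate 4 is the lowest of its group.

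Genes that were high in EMBRYO CNT alone had low values in both compared groups. clx-1, a collagen-like gene, had means of 177 FPKM in EMBRYO CNT, 0.296 FPKM in EMBRYO TM and 0.0526 FPKM in L4 CNT. F08H9.4, a small heat shock gene, sod-5, a copper and zinc superoxide dismutase, and F40G12.5 had EMBRYO CNT means of 44.5, 63.6 and 47.3 FPKM. In EMBRYO TM their means were 0.243, 1.37 and 1.12 FPKM and in L4 CNT 0.221, 0.340 and 0.235 FPKM. In all 4 the EMBRYO TM mean was above that of L4 CNT, but they fell under the filter of 1 FPKM and were not tested. dao-6 passed the filter only through its EMBRYO TM values, at 2.06 ± 0.557 FPKM against 0.247 ± 0.249 FPKM in L4 CNT (SD, n = 4). Its difference was 1.298 (SE 0.19), and EMBRYO CNT held 162 ± 28.5 FPKM. Since the filter kept it through the group where it was higher, its call is not read as a result.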

How the data were processed

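RNA-seq values of 8 libraries, 4 of EMBRYO TM and 4 of L4 CNT, were compared, and the 4 EMBRYO CNT libraries were described. Groups were taken from the treatment and stage in the sample labels, and whether worms of different plates shared a bleaching is not stated, so p-values measure the spread between these plates. Poly(A) RNA was sequenced on Illumina platforms, and the sources used here give no strand setting, so overlapping genes cannot be told apart. The authors aligned the reads with HISAT2 2.0.5, counted them with featureCounts v1.5.0-p3 and deposited FPKM values for 46589 genes, with gene length and position, and the submitters' processing notes also name StringTie 1.3.3b, DESeq2 and edgeR 3.22.5. The deposited headings use L1 for EMBRYO and D1 for L4. Positions are those of the deposited table, for which the sources used here do not give a build. Symbols were taken for 43469 genes from WBcel235 and for 1859 from RefSeq, and 1261 had none. In every library 100% of the deposited FPKM values were whole multiples of 1 read (within 0.01 reads), so reads on genes were recovered, and an interval or floor from them covers counting error only.

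The 8 libraries were tested over genes whose mean reached 1 FPKM, in R 4.3.3 with limma 3.58.1 (moderated linear model with a mean-variance trend, two-sided, Benjamini-Hochberg over 13480 genes) on log2(FPKM + 1). The model was tested on simulated data first. The 57 gene lists, the members and the rules were chosen with earlier results of these data known, and 27 listed names had no match. Genes were named when they were among the 12 largest increases or decreases past both thresholds without overlap, the 2 largest of either direction or the 2 most abundant of a list, members of a list of at most 12 genes, or genes that set EMBRYO CNT apart. Exceptions were col-19, unc-54, myo-3, egl-21, rab-3, unc-119, hsp-4, xbp-1, spe-5 and ins-18, named as known markers or to complete a small count. Alternatives were pseudocounts of 0.1 and 5, a filter at 5 FPKM or none, rescaling by median ratios or to TPM, only genes coding for protein, no fold threshold, all 16 libraries, a replicate block, voom on the recovered reads and each library left out. Removal of a lowess trend on log2 gene length from each library was added after the data were seen. Tables were written with pandas 2.3.3 in Python 3.11.15, and plots with matplotlib 3.10.9. Sequences were not used here.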

Additional observations from a re-analysis of the deposited data

Results flagged for a closer look

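For the genes and lists whose values are given per library, the highest or lowest of each group of 4 was tested for its distance from the rest. Of 174 such groups 17 stood out, where chance gives about 1 in 20. Of these, 11 were in L4 CNT replicate 2. In that library dpy-13 was at 4.48 FPKM (11.2 to 11.9 in the other 3), sqt-3 at 13.5 FPKM (20.9 to 22.0), lin-42 at 1.39 FPKM (2.50 to 2.70) and the mean level of the col collagens at 2.99 on the log2 scale (3.52 to 3.55). Stress and epidermal genes were also low, with mtl-1 at 6.72 FPKM (24.8 to 27.9), nlp-29 at 29.5 FPKM (73.7 to 81.6) and hmit-1.1 at 29.6 FPKM (42.5 to 44.5). Further values were 808 FPKM for cpr-1 (1203 to 1221), 391.7 FPKM for dhs-28 (449.7 to 459), 163 FPKM for hsp-6 (203 to 210.1) and, on the high side, 405 FPKM for dad-1 (334 to 344). In EMBRYO TM replicate 4, lin-14 was at 16.9 FPKM (27.9 to 29.8) and egl-3 at 52.7 FPKM (75.6 to 80.1). In EMBRYO CNT, alg-3 was at 6.81 FPKM in replicate 1 (4.91 to 5.07), hphd-1 at 20.2 FPKM in replicate 4 (18.7 to 18.9), nlp-24 at 25.8 FPKM in replicate 3 (18.8 to 19.4), and the mean level of the propionate shunt at 4.91 in replicate 4 (4.80 to 4.82). L4 CNT replicate 2 was also the shallowest of the 8 compared libraries, and the part of depth in these values was not tested.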

How the results depend on the processing

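Against 2352 higher, 978 lower and 3345 genes at the L4 CNT level, a pseudocount of 5 gave 800 higher, 592 lower and 6340 at that level, a filter at 5 FPKM gave 1041 higher, and no filter gave 9745 at that level. Without a fold threshold 4528 were higher and 4714 lower. Leaving out 1 library gave 2267 to 2404 higher, 822 to 1280 lower (the most without EMBRYO TM replicate 4) and 2772 to 3451 at that level. The share of higher among the calls, 70.6%, was 57.5% with a pseudocount of 5, 53.97% with a filter at 5 FPKM and 78.9% with TPM rescaling, which moved the median of all genes by 0.11. With voom 2885 were higher and 1407 lower, and with the length trend removed 2102 and 965. No named gene that was called changed direction under any of these settings. Of 300 named genes, 37 fell short of a threshold with a pseudocount of 5, 8 with TPM rescaling, 8 with the length trend removed and up to 9 with a library left out (the most without EMBRYO TM replicate 3), and up to 7 came past one with a library left out (the most without EMBRYO TM replicate 4). With the replicate number as a block 2361 were higher and 982 lower, with 2973 at the L4 CNT level, and no named gene changed its call. The numbers do not pair the libraries, since same-numbered libraries of the 2 groups had correlations of 0.01, -0.04, 0.06 and -0.19 in their deviations from the group means, and not every library correlated best with its own number. Genes with a mean under 5 FPKM made up 4305 of the 13480 tested, with 1312 of the higher and 91 of the lower calls, and for these the counting error is large.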

Other observations

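Gene groups outside the programmes above had shares of higher genes near the 17.4% of all genes or were small, and nothing particular to them is read from these counts. Of 10 genes known for early zygotic expression in the embryo, those higher in EMBRYO TM were sdz-28 (1.39), tbx-11 (1.33), pha-4, the organ identity factor of the pharynx (1.296), and sdz-24 (1.09), while pal-1, a maternally supplied homeodomain factor, was at 58.4 ± 7.80 FPKM against 107 ± 19.5 FPKM (SD, n = 4, difference -0.85). Of 30 histone genes, 5 were higher, his-70, a histone H3 variant, the most (2.30). Histone messages mostly lack a poly(A) tail, and the part of poly(A) selection in these values was not tested. Of 29 genes of intestinal identity and the brush border, 6 were higher and 10 reached the L4 CNT level, and without EMBRYO TM replicate 4 9 were higher. The number that reached the level fell to 5 without L4 CNT replicate 1 or 3 and to 6 without EMBRYO TM replicate 1 or L4 CNT replicate 4. elt-2, the master regulator of the intestine, was at 27.9 ± 1.03 FPKM against 13.03 ± 1.08 FPKM (SD, n = 4). Among 6 pud genes, pud-4 was higher (1.297) and 1 of the near-identical pud-2.2 copies lower (-1.09). icl-1, the glyoxylate enzyme that turns fat into sugar, was lower (-1.60).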
